A study of Homo sapiens with 8 samples.

Results

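The solute carriers that move amino acids and related compounds across membranes were compared between gefitinib-resistant and control lung cancer cells. A member is any gene whose name places it in the SLC1, SLC3, SLC6, SLC7, SLC36, SLC38 or SLC43 family, and a gene with several entries was taken at the entry with the highest mean over the 8 libraries. There were 59 members among 48405 gene rows, 7 in SLC1, 2 in SLC3, 19 in SLC6, 13 in SLC7, 4 in SLC36, 11 in SLC38 and 3 in SLC43. The cells were HCC4006 and HCC827, established human lung adenocarcinoma lines of the non-small-cell type that carry activating mutations of EGFR, the receptor that gefitinib inhibits. The groups were HCC4006 resistant to gefitinib, HCC4006 kept in DMSO, HCC827 resistant to gefitinib and HCC827 kept in DMSO, with 2 libraries each. DMSO is the solvent of the drug. Resistant cells were populations that could be grown routinely with 3 µM gefitinib, so the drug and the acquired resistance cannot be told apart. The labels report a fingerprint comparison of the control and resistant cultures and do not say that they are clones. Whether the paired libraries of each group were grown as separate cultures is not stated, and p-values cover the scatter between libraries, which can be purely technical.

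Amino acid transporters set which building blocks, nitrogen donors and signals a cell can take up. Exchangers such as SLC1A5 and the SLC7A5 and SLC3A2 pair trade one amino acid for another, while sodium-driven carriers such as SLC38A1 and SLC38A2 bring in net amounts. SLC7A11, also paired with SLC3A2, exchanges glutamate for cystine, the source of cysteine for glutathione. Many of these genes are induced by the transcription factor ATF4 when amino acids run short.

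Levels are FPKM, which count fragments per kilobase of a transcript after a scaling of each library, so levels can be set against each other between genes. The libraries held 17406 to 19333 rows above 0, the median of those rows lay between 53.6 and 59.0 FPKM, and the 10 highest rows took 5.30% to 15.6% of the summed FPKM. An exact 0 was listed for many genes and may be a failed estimate, so members with a group at 0 are given by their values and without a fold change. Of the epithelial markers, EPCAM, KRT8, KRT19, NKX2-1, CDH1 and EGFR were above 0 in all 8 libraries, and KRT18 was found only on a joined row away from its own gene, below 1 FPKM. Resistant HCC4006 held little CDH1, 3.03 and 3.29 FPKM against 1518 and 945 FPKM in DMSO HCC4006. EPCAM had 183 and 113 FPKM against 1529 and 2003 FPKM there. KRT8, KRT19 and NKX2-1 were also lower in resistant HCC4006 without overlap, while the EGFR groups overlapped. The list summed to 2573 and 2381 FPKM in resistant HCC4006 against 10583 and 16508 in DMSO HCC4006, and 12141 and 17916 in resistant HCC827 against 21501 and 20383 in DMSO HCC827. EGFR had 1639 and 424 FPKM in resistant HCC827 against 5462 and 5246 FPKM in DMSO HCC827. KRT8 had 1175 and 2743 FPKM against 5187 and 5157 FPKM in these groups, so both were lower without overlap. The EPCAM, KRT19, NKX2-1 and CDH1 groups of HCC827 overlapped. The blood and endothelial markers PTPRC, CD3E, CD3D, MS4A1, CDH5, HBB, HBA1 and HBA2 and the fibroblast marker COL3A1 were listed at 0 in all 8 libraries. Of the other endothelial markers, KDR had 4.08 and 3.71 FPKM in resistant HCC4006 against 0.522 and 1.42 FPKM in DMSO HCC4006, without overlap. KDR was listed at 0 in HCC827. VWF reached at most 1.76 FPKM, and PECAM1 was not found. The fibroblast list summed to 96.6 and 119 FPKM in resistant HCC4006 against 122 and 71.7 FPKM in DMSO HCC4006, and to 13.4 and 18.1 FPKM in resistant HCC827 against 44.1 and 50.9 FPKM in DMSO HCC827. Most of it was COL1A1, whose HCC4006 groups overlapped (73.9 and 91.7 FPKM in resistant against 120 and 69.1 FPKM in DMSO cells). PDGFRB had 21.9 and 26.2 FPKM in resistant HCC4006 against 2.57 and 0.764 FPKM in DMSO HCC4006, without overlap. COL1A2 was above 0 only in resistant HCC4006 (0.811 and 1.29 FPKM), and LUM only in DMSO HCC4006 library B (1.82 FPKM). The leukocyte list summed to 356 and 435 FPKM in resistant HCC4006 against 1126 and 298 FPKM in DMSO HCC4006. In HCC827 it summed to 339 and 356 FPKM in resistant cells against 337 and 264 FPKM in DMSO cells. Nearly all of the leukocyte sum was CD68 alone in every library, for example 354 and 432 FPKM in resistant HCC4006. CD14 and LYZ reached at most 2.32 and 3.90 FPKM. The part of these marker differences in the results was not tested.

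Of the 59 members, 19 were above 0 in all 8 libraries, 16 in some and 24 in none. The members listed at 0 throughout were 12 of the 19 SLC6 genes, 5 of the 13 SLC7 genes, 3 of the 11 SLC38 genes, 2 of the 4 SLC36 genes and 2 of the 7 SLC1 genes. They included SLC6A12 and SLC6A13, which carry GABA or betaine, SLC6A2, SLC6A3 and SLC6A4, the noradrenaline, dopamine and serotonin transporters, and SLC1A2 and SLC1A6, which are glutamate transporters of the brain. Not every such 0 can be read as absence. SLC38A10 shared its locus with 27 other rows, among them RPTOR and RNF213, and all 27 were listed at 0 in the 4 groups, as were the 7 other rows on the locus that SLC6A3 shares with SLC6A18 and SLC6A19. SLC1A3, a glutamate transporter, was listed above 0 only in DMSO HCC4006 library B (1.97 FPKM), SLC7A8, a partner of SLC3A2, only in DMSO HCC827 library A (0.929 FPKM), and SLC38A5, a glutamine carrier, only in DMSO HCC827 library B (1.79 FPKM).

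**Figure D1:**
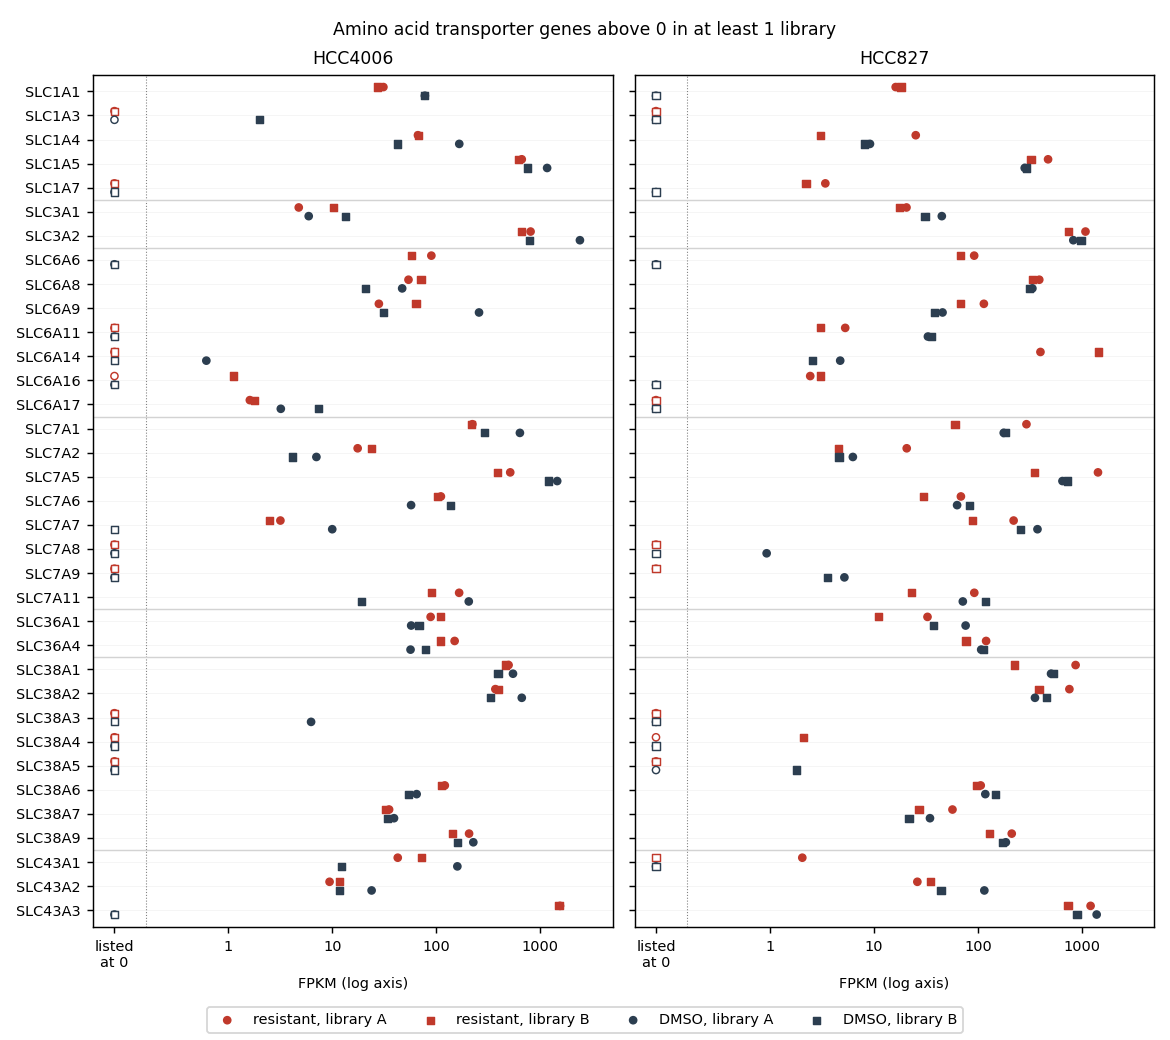
FPKM of the 35 members above 0 in at least 1 library, on a log axis, with open symbols for values listed at 0; circles are library A and squares library B of each group. SLC43A3, SLC3A2, SLC7A5, SLC1A5, SLC38A1 and SLC38A2 lie at the high end, and SLC43A3 and SLC6A6 are at 0 in both DMSO HCC4006 libraries.

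A few members carried most of the summed transporter FPKM. SLC43A3, a purine nucleobase transporter named for its family rather than for amino acids, stood first in resistant HCC4006 with 1550 and 1517 FPKM, above SLC3A2 with 807 and 655 FPKM. SLC3A2 and SLC1A5 (664 and 618 FPKM there) did not separate, since their libraries interleaved. In DMSO HCC4006, SLC3A2 (2410 and 782 FPKM) and SLC7A5 (1456 and 1194 FPKM) came first and overlapped each other, and both SLC7A5 values lay above SLC1A5 (1165 and 755 FPKM). In resistant HCC827, SLC43A3, SLC6A14, SLC3A2 and SLC7A5 had the highest means, and each overlapped the next. In DMSO HCC827, SLC43A3 (1391 and 901 FPKM) and SLC3A2 (829 and 981 FPKM) overlapped, with SLC7A5, SLC38A1 and SLC38A2 below them in separate steps. The summed FPKM over the 59 members was 5851 and 5363 in resistant HCC4006 against 8353 and 4522 in DMSO HCC4006, and 8165 and 5329 in resistant HCC827 against 5826 and 5525 in DMSO HCC827. The sums of the resistant and DMSO groups overlapped in both lines. In HCC4006 the resistant sums hold SLC43A3, on a row joined with PRG2, at 1550 and 1517 FPKM, and the DMSO sums hold it at 0. The overlap in that line and the order in DMSO HCC4006 both depend on this 0. Whether it was a failed estimate was not tested.

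The first comparison asked which transporters differed between resistant and DMSO cells of a line. In HCC4006, SLC7A5 and SLC1A1 fell, and SLC6A6 and SLC43A3 were present in resistant cells and listed at 0 in DMSO cells. In HCC827, SLC6A14 rose about 190.4-fold, SLC6A11 fell, and SLC6A6 and SLC1A1 were present in resistant cells and listed at 0 in DMSO cells. A member was called at an adjusted p below 0.05 in limma, fitted over all rows with a mean of at least 0.5 FPKM. In HCC4006, 26 members were tested and 4 were called, where 9.36% of all tested rows were called. Of these 4, 2 were higher and 2 lower in resistant cells, beside 6.37% and 2.98% of all rows. Among the 22 members above 0 in all 4 libraries, 2 were called, both lower, where 3.03% of such rows were called, 1.01% higher and 2.01% lower. In HCC827, 30 members were tested and 4 called, against 6.8% of all rows. Of these 4, 3 were higher and 1 lower, beside 5.13% and 1.67% of all rows. Of the 23 members above 0 in all 4 libraries there, 1 was called higher and 1 lower, where 0.999% of such rows were called, 0.446% higher and 0.553% lower.

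These counts rest on little replication. When limma was fitted over rows above 0 alone, it called 0 members in HCC4006, where 0.534% of rows were called. At an unadjusted p below 0.05 there were 5 of the 22, beside 16.4% of rows. The same fit called 1 member in HCC827, SLC6A14, where 0.119% of rows were called. In RNA from bulk cultures, fewer cells that express a gene and less RNA per cell cannot be told apart. Over members above 0, the median log2 fold change was −0.23 in HCC4006 and −0.20 in HCC827, beside −0.04 and −0.10 over all rows above 0. In HCC4006, 5 of these members were higher and 5 lower without overlap between the groups, where 22.7% and 28.3% of all rows above 0 did the same. In HCC827, 3 were higher and 6 lower without overlap, beside 20.2% and 26.3% of all rows above 0.

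**Figure D2:**
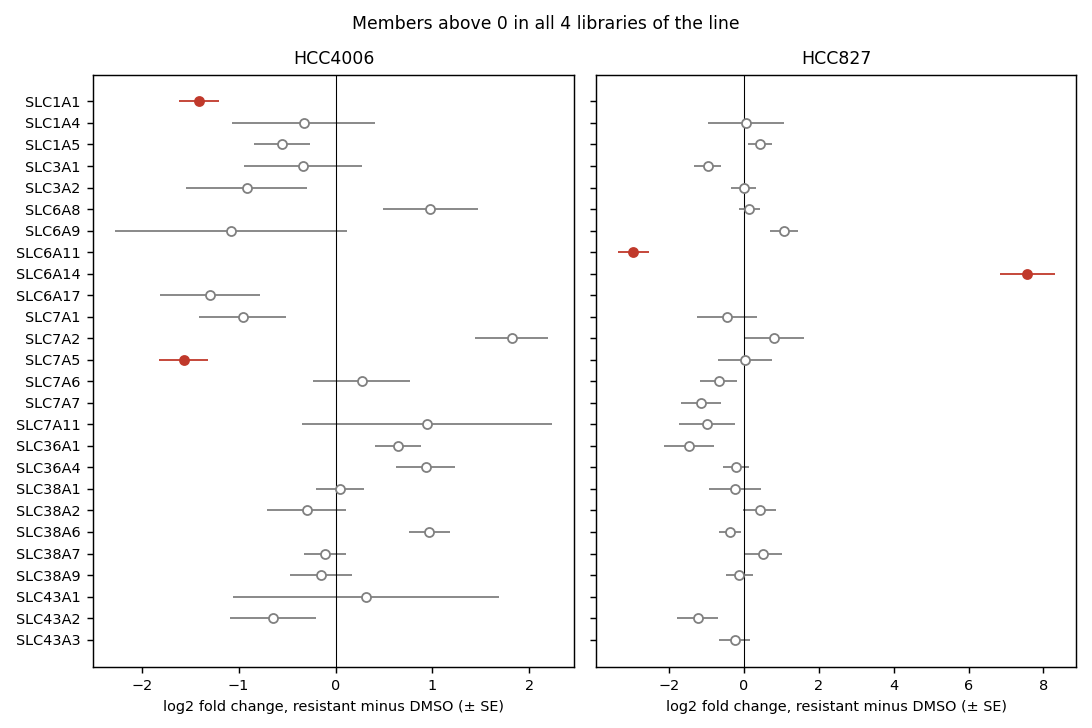
Log2 fold change, resistant minus DMSO, with its SE, of every tested member above 0 in all 4 libraries of the line; filled red points were called at an adjusted p below 0.05. The x axes of the panels differ. SLC7A5 and SLC1A1 are the called members in HCC4006, and SLC6A14 at 7.57 and SLC6A11 at −2.94 those in HCC827.

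Within SLC6, the family of sodium- and chloride-driven carriers of neurotransmitters, amino acids and related compounds, SLC6A14 had the highest mean over the series. SLC6A14 carries neutral and cationic amino acids inward over a broad range and lies on chromosome X (hg19 chrX:115567747-115592625). It had 400.4 and 1453 FPKM in resistant HCC827, against 4.74 and 2.57 FPKM in DMSO HCC827. The groups were far apart, although the resistant libraries themselves differed by more than 2-fold. The log2 fold change was 7.57 (SE 0.72, adjusted p = 0.00538 in limma). It was the highest log2 fold change of the 15917 HCC827 rows above 0 in all 4 libraries. The call was lost when any 1 of the 4 libraries was left out, with adjusted p of 0.0861 without resistant A, 0.118 without resistant B, 0.157 without DMSO A and 0.217 without DMSO B, while the log2 fold change stayed between 6.64 and 8.50. In HCC4006 the gene was listed at 0 in both resistant libraries and at 0.613 and 0 FPKM in the DMSO libraries.

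SLC6A11, a GABA transporter known from the brain, moved the other way in HCC827 (hg19 chr3:10857885-10982419). It had 5.30 and 3.04 FPKM in resistant HCC827 against 33.1 and 35.6 FPKM in DMSO HCC827, 7.68-fold lower on the log2(FPKM + 0.5) scale. The groups did not overlap (log2 fold change −2.94, SE 0.42, adjusted p = 0.0235). Without resistant A, resistant B, DMSO A or DMSO B, the adjusted p was 0.0545, 0.0809, 0.23 and 0.281, and over rows above 0 alone it was 0.108. It was listed at 0 in all 4 HCC4006 libraries.

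SLC6A6, which imports taurine and beta-alanine (hg19 chr3:14444076-14583588), was listed at 0 in the DMSO libraries of both lines. It had 89.6 and 57.9 FPKM in resistant HCC4006 and 92.2 and 68.2 FPKM in resistant HCC827. The 2 other rows on its locus were also listed at 0 in both DMSO groups and reached 0.345 FPKM in resistant HCC4006 and 22.4 FPKM in resistant HCC827. The call therefore rests on values of 0 that the locus shares, and whether those were failed estimates was not tested.

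The other SLC6 members did not pass the test in either line. SLC6A8, the creatine transporter, had 54.0 and 71.3 FPKM in resistant HCC4006 against 47.0 and 20.8 FPKM in DMSO HCC4006, and 390.0 and 334 FPKM in resistant HCC827 against 335 and 314 FPKM in DMSO HCC827. The HCC4006 groups did not overlap, and their log2 fold change was 0.98 with an SE of 0.49 (adjusted p = 0.35), while those of HCC827 did (0.15, SE 0.27). SLC6A9, the glycine transporter GlyT1, had 28 and 63.7 FPKM in resistant HCC4006 against 258 and 31.0 FPKM in DMSO HCC4006. Resistant HCC827 had 114 and 68.7 FPKM of it against 45.7 and 38 FPKM in DMSO HCC827, without overlap (log2 fold change 1.08, SE 0.38, adjusted p = 0.246). SLC6A9 shares its locus with CCDC24, and 32 of the 59 members share theirs with another name. Without strand the fragments of overlapping genes cannot be told apart. SLC6A17 had 1.61 and 1.78 FPKM in resistant HCC4006 against 3.19 and 7.37 FPKM in DMSO HCC4006, and was listed at 0 in HCC827. SLC6A16, an orphan carrier, was at 2.44 and 3.06 FPKM in resistant HCC827 and listed at 0 in DMSO HCC827.

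**Figure D3:**
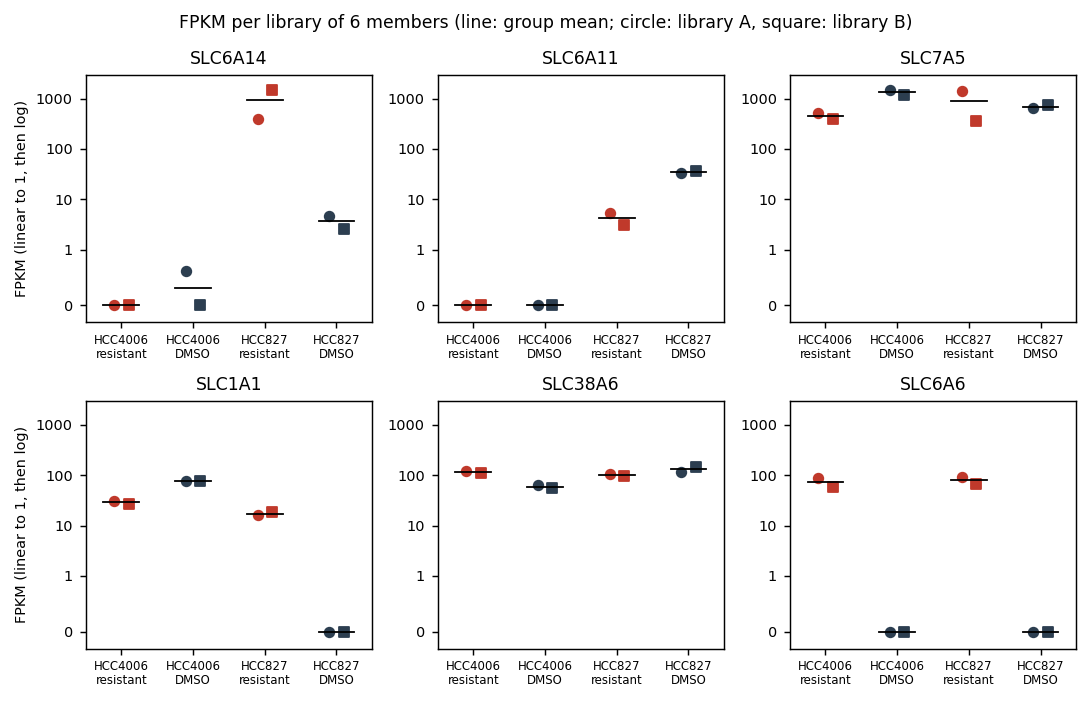
FPKM per library of 6 members, on an axis that is linear to 1 and logarithmic above; black lines are group means. SLC6A14 stands above 400 FPKM in both resistant HCC827 libraries and below 5 in the others; SLC6A6 stands above 50 FPKM in the 4 resistant libraries and is listed at 0 in the 4 DMSO libraries.

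Within SLC7, the light chains of heteromeric exchangers and the cationic amino acid carriers, SLC7A5 fell in HCC4006. SLC7A5 (LAT1; hg19 chr16:87863622-87903125) exchanges large neutral amino acids such as leucine and depends on SLC3A2 for its place in the membrane. It had 515 and 386 FPKM in resistant HCC4006 against 1456 and 1194 FPKM in DMSO HCC4006, 2.96-fold lower without overlap. The log2 fold change was −1.56 (SE 0.25, adjusted p = 0.0463). That call was lost with any 1 library left out, at adjusted p of 0.269 without resistant A, 0.355 without resistant B, 0.118 without DMSO A and 0.0833 without DMSO B. It was also lost over rows above 0 alone (0.098), after quantile normalization (0.0551), in a fit of all 8 libraries (0.224) and with the column letter as a block (0.0776). In HCC827 the resistant libraries straddled the controls, with 1432 and 351 FPKM against 652 and 730 FPKM in DMSO cells (log2 fold change 0.04, SE 0.72). The difference of the changes between the lines, HCC4006 minus HCC827, was −1.60 (SE 0.88, adjusted p = 0.327), with −0.59 (adjusted p = 0.35) without resistant HCC827 library A and −2.62 (adjusted p = 0.0158) without library B.

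SLC3A2 and SLC3A1 are the single-pass heavy chains that carry the light chains to the membrane. SLC3A2 (CD98) had 807 and 655 FPKM in resistant HCC4006 against 2410 and 782 FPKM in DMSO HCC4006, which overlapped (log2 fold change −0.92, SE 0.63, adjusted p = 0.479). In HCC827 it had 1086 and 747 FPKM in resistant cells against 829 and 981 FPKM in DMSO cells with overlap (log2 fold change −0.0015, SE 0.33). SLC3A1, the partner of the cystine and dibasic amino acid carrier SLC7A9, had 20.6 and 17.5 FPKM in resistant HCC827 against 45.0 and 31.0 FPKM in DMSO HCC827 (log2 fold change −0.96, SE 0.36, adjusted p = 0.272). SLC7A9 itself was listed at 0 in resistant HCC827 and had 5.20 and 3.56 FPKM in DMSO HCC827, and it was at 0 in all 4 HCC4006 libraries.

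SLC7A11 (xCT), the cystine and glutamate exchanger, differed widely between libraries of a group. It had 166 and 89.4 FPKM in resistant HCC4006 against 205 and 19.1 FPKM in DMSO HCC4006 (log2 fold change 0.94, SE 1.29, adjusted p = 0.7). In HCC827 it had 92.4 and 23.2 FPKM in resistant cells against 71.7 and 119 FPKM in DMSO cells (−0.98, SE 0.75, adjusted p = 0.546). Both pairs of groups overlapped. SLC7A1 (CAT1), which imports arginine and lysine, had 222 and 219 FPKM in resistant HCC4006 against 638 and 289 FPKM in DMSO HCC4006 (log2 fold change −0.96, SE 0.45, adjusted p = 0.329), without overlap. Without DMSO A it was −0.39 (adjusted p = 0.142), and without DMSO B −1.53 (adjusted p = 0.0249). In HCC827, SLC7A1 had 294 and 60.4 FPKM in resistant cells against 178 and 185 FPKM in DMSO cells, which overlapped.

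SLC7A2 (CAT2), another cationic amino acid carrier, had 17.5 and 23.6 FPKM in resistant HCC4006 against 7.02 and 4.16 FPKM in DMSO HCC4006, without overlap (log2 fold change 1.82, SE 0.38, adjusted p = 0.0831). SLC7A6 and SLC7A7 are light chains that exchange cationic for neutral amino acids. SLC7A6 had 111 and 103 FPKM in resistant HCC4006 against 57.2 and 138 FPKM in DMSO HCC4006, and 68.7 and 30.0 FPKM in resistant HCC827 against 63.2 and 83.2 FPKM in DMSO HCC827, with overlap in both lines. SLC7A7 had 221 and 88.8 FPKM in resistant HCC827 against 375 and 256 FPKM in DMSO HCC827, without overlap (log2 fold change −1.14, SE 0.54, adjusted p = 0.365). In HCC4006 it had 3.16 and 2.48 FPKM in resistant cells against 9.97 and 0 FPKM in DMSO cells.

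Within SLC1, which holds the glutamate transporters and the neutral amino acid exchangers, SLC1A1 was called lower in HCC4006. Its call in HCC827 rests on values listed at 0. SLC1A1 (EAAT3; hg19 chr9:4490444-4666674) takes up glutamate, aspartate and cysteine. It had 31.0 and 27.1 FPKM in resistant HCC4006 against 77.7 and 77.4 FPKM in DMSO HCC4006, a 2.65-fold fall without overlap (log2 fold change −1.40, SE 0.21, adjusted p = 0.037). Leaving out resistant A, resistant B, DMSO A or DMSO B gave an adjusted p of 0.236, 0.279, 0.0833 and 0.0659. The adjusted p was 0.127 over rows above 0 alone and 0.131 with the column letter as a block. In HCC827 it had 16.2 and 18.2 FPKM in resistant cells and was listed at 0 in DMSO cells. The 3 other rows on the SLC1A1 locus were listed at 0 in DMSO HCC827 as well, while they reached 86.4 FPKM in resistant HCC827. Whether those values of 0 were failed estimates was not tested, so no direction is read from them.

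SLC1A5 (ASCT2), the main glutamine exchanger of many tumour cells, had 664 and 618 FPKM in resistant HCC4006 against 1165 and 755 FPKM in DMSO HCC4006. In HCC827 the order was opposite, with 474 and 324 FPKM in resistant cells against 283 and 296 FPKM in DMSO cells. Neither pair of groups overlapped, and neither log2 fold change passed the test (−0.55, SE 0.29, adjusted p = 0.373 in HCC4006; 0.44, SE 0.32, adjusted p = 0.535 in HCC827). SLC1A4 (ASCT1), which exchanges serine, alanine and cysteine, had 66.6 and 66.9 FPKM in resistant HCC4006 against 166 and 42.3 FPKM in DMSO HCC4006. Its values were 25.3 and 3.05 FPKM in resistant HCC827 against 9.16 and 8.15 FPKM in DMSO HCC827. The groups overlapped in both lines. In HCC4006 its log2 fold change was −0.33 (SE 0.74), with 0.65 (adjusted p = 0.12) without DMSO A and −1.31 (adjusted p = 0.0391) without DMSO B. SLC1A7, a glutamate transporter of the retina, had 3.41 and 2.23 FPKM in resistant HCC827 and was listed at 0 in the other 3 groups.

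The SLC38 family holds sodium-coupled neutral amino acid carriers, and no member of it was called in either line. SLC38A1 and SLC38A2, which import glutamine and alanine, were among its highest. SLC38A1 had 496 and 464 FPKM in resistant HCC4006 against 547 and 393 FPKM in DMSO HCC4006, and 872 and 224 FPKM in resistant HCC827 against 506 and 537 FPKM in DMSO HCC827. SLC38A2 had 370.1 and 395 FPKM in resistant HCC4006 against 664 and 333 FPKM in DMSO HCC4006, and 760.4 and 387 FPKM in resistant HCC827 against 355 and 460.2 FPKM in DMSO HCC827. The groups overlapped for both genes in both lines. SLC38A9, a lysosomal carrier that signals arginine to mTORC1, had 207 and 143 FPKM in resistant HCC4006 against 227 and 161 FPKM in DMSO HCC4006, and 212 and 130.1 FPKM in resistant HCC827 against 186 and 173 FPKM in DMSO HCC827. Its log2 fold changes were −0.15 (SE 0.32) and −0.11 (SE 0.35).

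SLC38A6, a less studied member of the family, was the only member above 0 in all 8 libraries whose change was called different between the lines. It had 121 and 112 FPKM in resistant HCC4006 against 64.7 and 54.4 FPKM in DMSO HCC4006, without overlap (log2 fold change 0.97, SE 0.21, adjusted p = 0.0912). In HCC827 it had 107 and 97.8 FPKM in resistant cells against 118 and 147 FPKM in DMSO cells, also without overlap (−0.37, SE 0.29, adjusted p = 0.554). The difference of the changes, HCC4006 minus HCC827, was 1.34 (SE 0.32, adjusted p = 0.0453). It held without DMSO HCC4006 library A (adjusted p = 0.0488) and was lost without each of the other 7 libraries. Those adjusted p were 0.139 and 0.117 without resistant HCC4006 A and B, 0.0517 without DMSO HCC4006 B, 0.0578 and 0.0822 without resistant HCC827 A and B, and 0.0576 and 0.11 without DMSO HCC827 A and B. The call was also lost after quantile normalization (0.0697) and with the column letter as a block (0.136).

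Over all members, 7 of the 31 tested were called in the difference of the changes, where 12.1% of all rows were called. The other 6, SLC1A1, SLC1A7, SLC6A11, SLC6A14, SLC7A9 and SLC43A3, had at least 1 library listed at 0. For SLC1A7, SLC6A11 and SLC7A9 every HCC4006 library was at 0, so the difference is only the HCC827 change with its sign turned. In HCC827 itself, SLC1A7 and SLC7A9 were not called (adjusted p = 0.12 and 0.0608 in limma). Among rows above 0 in all 8 libraries, 4.89% were called. Fitted over rows above 0 alone, limma called 0 members, where 1.45% of rows were called. At an unadjusted p below 0.05 there were 2 of 19, beside 19% of rows.

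SLC36A1 is a proton-coupled carrier that exports small neutral amino acids from the lysosome. SLC36A1 had 88.2 and 109 FPKM in resistant HCC4006 against 57.3 and 68.2 FPKM in DMSO HCC4006, and 32.8 and 11.1 FPKM in resistant HCC827 against 76.3 and 37.6 FPKM in DMSO HCC827. The groups did not overlap in either line and the directions were opposite (log2 fold change 0.65, SE 0.24, adjusted p = 0.231 in HCC4006; −1.46, SE 0.67, adjusted p = 0.357 in HCC827). SLC36A4, which carries proline and tryptophan, had 150.1 and 109 FPKM in resistant HCC4006 against 56.5 and 79.1 FPKM in DMSO HCC4006, without overlap (0.93, SE 0.31, adjusted p = 0.196). In HCC827 it had 120.1 and 76.8 FPKM in resistant cells against 108 and 113 FPKM in DMSO cells, which overlapped.

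Of the SLC43 family, SLC43A1 (LAT3) and SLC43A2 (LAT4) carry branched-chain and other large neutral amino acids. SLC43A1 had 42.6 and 72.4 FPKM in resistant HCC4006 against 159 and 12.2 FPKM in DMSO HCC4006, which overlapped (log2 fold change 0.31, SE 1.37). In HCC827 it was above 0 only in resistant library A, at 2.05 FPKM. SLC43A2 had 9.40 and 11.8 FPKM in resistant HCC4006 against 23.9 and 11.6 FPKM in DMSO HCC4006, and 26.2 and 35.1 FPKM in resistant HCC827 against 116 and 44.3 FPKM in DMSO HCC827. Only the HCC827 groups did not overlap (−1.23, SE 0.55, adjusted p = 0.347). SLC43A3, whose row is joined with PRG2 and cannot be told apart from it, had 1550 and 1517 FPKM in resistant HCC4006 and was listed at 0 in DMSO HCC4006. Resistant HCC827 had 1216 and 738 FPKM against 1391 and 901 FPKM in DMSO HCC827, with overlap.

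The libraries of a group were not equally close. In DMSO HCC4006, 17 of the 22 members above 0 in both libraries were higher in library A, beside 52% of all such rows. There, 11 of 22 (50%) differed by more than 2-fold, where 29.5% of all rows did. SLC43A1 (159 and 12.2 FPKM), SLC7A11 (205 and 19.1 FPKM), SLC6A9 (258 and 31.0 FPKM), SLC1A4 (166 and 42.3 FPKM) and SLC3A2 (2410 and 782 FPKM) were among them. In resistant HCC827, 23 of 27 members were higher in library A, beside 50.3% of all rows. Beyond 2-fold were 11 of 27 (40.7%), beside 25.4% of all rows. SLC1A4 (25.3 and 3.05 FPKM), SLC7A1 (294 and 60.4 FPKM), SLC7A5 (1432 and 351 FPKM), SLC7A11 (92.4 and 23.2 FPKM) and SLC38A1 (872 and 224 FPKM) were higher in A there, and SLC6A14 was higher in B. The other groups were closer, with 2 of 25 members beyond 2-fold in resistant HCC4006 (7.22% of all rows) and 2 of 24 in DMSO HCC827 (16.8% of all rows).

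Genes of the amino acid response driven by ATF4 differed between the same libraries. In DMSO HCC4006, 20 of the 22 genes of this list above 0 in both libraries were higher in A, beside 52% of all such rows. Their median log2 difference, A minus B, was 1.81 beside 0.04 over all rows. DDIT3, which encodes the stress factor CHOP, had 4773 and 80.1 FPKM there, TRIB3 2182 and 302 FPKM, and ASNS, asparagine synthetase, 979 and 209 FPKM. In resistant HCC827, 17 of 23 were higher in A, beside 50.3% of all rows, with a median of 0.61 beside 0.01 over all rows. ASNS had 693 and 236 FPKM in those libraries. Between resistant and DMSO cells, limma called 0 of 23 tested genes of the list in either line. At an unadjusted p below 0.05 there were 0 in HCC4006 and 10 in HCC827, beside 23% and 18.2% of all tested rows. Among list genes above 0, the median log2 fold change was −0.41 in HCC4006 and 0.65 in HCC827, beside −0.04 and −0.10 over all rows above 0. The part of this difference between libraries in the transporter results was not tested.

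**Figure D4:**
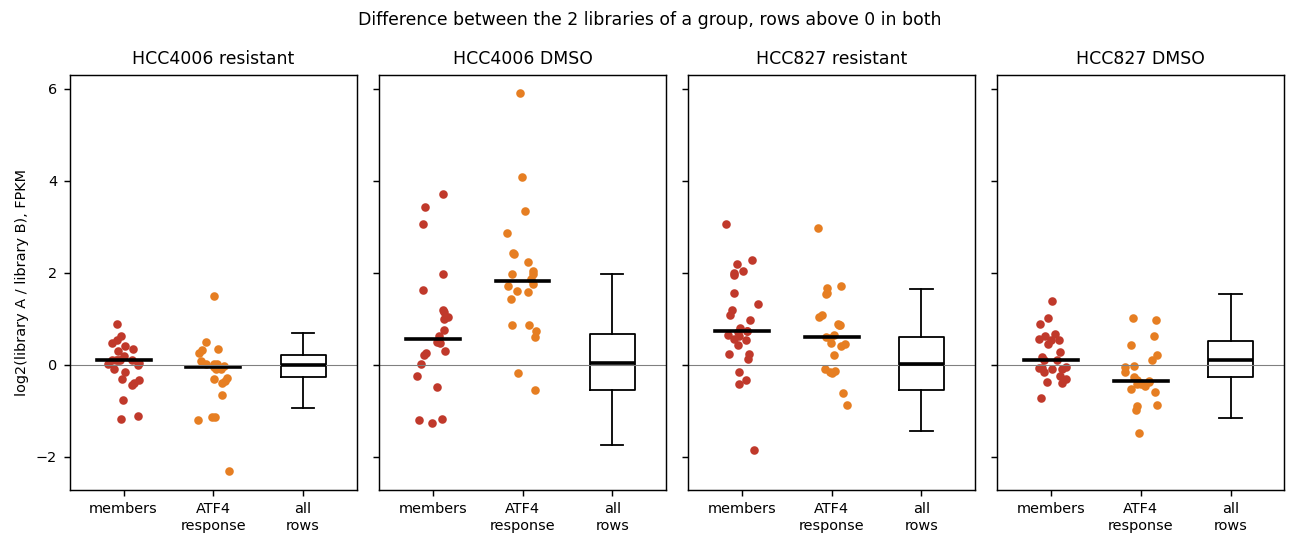
Log2 ratio of library A over library B in each group, for members, genes of the ATF4 amino acid response and all rows, over rows above 0 in both libraries; black bars are medians and boxes cover the quartiles with whiskers at the 5th and 95th percentiles. In DMSO HCC4006 the medians are 0.56 for members and 1.81 for ATF4 response genes, and in resistant HCC827 they are 0.72 and 0.61.

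ATF4 and its partners bind composite elements, and the letters TGATGNAA were searched on both strands of the RefSeq promoter windows (GRCh38.p14, 250 bases before to 50 after each gene start). Windows were found for 44 of the 59 members, 66 windows in all. A match stood in 6 of 66 windows (9.09%), each of a different member, where 1270 of 35093 windows of all genes (3.62%) held one. The match is a description of these letters and no test was made. The sixth member with a match was SLC1A3 (forward from −220), which was above 0 in 1 library. The 5 windows shown are those of members above 0 in all 8 libraries, 5′ to 3′ on the gene's strand, with the match in capitals, forward or reverse, and its position counted from the gene start. They belong to SLC1A4 (chr2:64989149-64989448, plus strand, reverse match from −7), SLC1A5 (chr19:46784765-46785064, minus strand, forward from −97), SLC3A2 (chr11:62881449-62881748, plus strand, reverse from 38), SLC7A1 (chr13:29595639-29595938, minus strand, forward from 8) and SLC38A1 (chr12:46266467-46266766, minus strand, forward from −4). SLC1A4, SLC1A5, SLC3A2 and SLC38A1 each have further windows at other starts without a match.
SLC1A4: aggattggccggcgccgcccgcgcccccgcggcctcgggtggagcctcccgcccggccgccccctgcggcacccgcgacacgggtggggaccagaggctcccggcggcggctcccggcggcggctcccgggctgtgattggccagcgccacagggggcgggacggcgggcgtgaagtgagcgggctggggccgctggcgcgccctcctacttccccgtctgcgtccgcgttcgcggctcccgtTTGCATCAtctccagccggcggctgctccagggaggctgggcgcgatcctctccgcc
SLC1A5: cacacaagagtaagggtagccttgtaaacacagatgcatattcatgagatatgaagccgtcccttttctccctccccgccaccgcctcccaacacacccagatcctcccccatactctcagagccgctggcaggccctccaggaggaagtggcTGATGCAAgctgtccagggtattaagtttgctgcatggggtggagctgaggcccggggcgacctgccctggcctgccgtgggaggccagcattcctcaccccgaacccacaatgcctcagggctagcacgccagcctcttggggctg
SLC3A2: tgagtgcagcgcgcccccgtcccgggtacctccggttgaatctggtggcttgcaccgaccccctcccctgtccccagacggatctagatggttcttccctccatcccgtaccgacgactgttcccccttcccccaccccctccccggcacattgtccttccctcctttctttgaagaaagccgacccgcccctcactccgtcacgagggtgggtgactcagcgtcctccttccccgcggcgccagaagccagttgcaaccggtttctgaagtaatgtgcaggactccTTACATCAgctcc
SLC7A1: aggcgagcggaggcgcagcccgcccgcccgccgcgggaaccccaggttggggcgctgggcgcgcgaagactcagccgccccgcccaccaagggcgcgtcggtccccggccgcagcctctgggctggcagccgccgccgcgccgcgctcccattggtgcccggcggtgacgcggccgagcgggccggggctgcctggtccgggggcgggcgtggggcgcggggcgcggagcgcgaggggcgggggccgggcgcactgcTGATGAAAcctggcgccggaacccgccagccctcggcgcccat
SLC38A1: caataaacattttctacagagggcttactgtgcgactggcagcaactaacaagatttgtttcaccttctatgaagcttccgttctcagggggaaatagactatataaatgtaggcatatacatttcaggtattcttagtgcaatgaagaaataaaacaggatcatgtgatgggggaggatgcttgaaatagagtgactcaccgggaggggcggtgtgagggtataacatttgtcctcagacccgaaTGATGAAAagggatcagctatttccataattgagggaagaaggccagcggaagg

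In DMSO HCC4006 these 5 genes were higher in library A than in library B, as were 17 of the 22 members with or without a match. SLC1A4 differed by 3.94-fold, SLC3A2 by 3.08-fold, SLC7A1 by 2.21-fold, SLC1A5 by 1.54-fold and SLC38A1 by 1.39-fold. SLC43A1 and SLC6A9, whose windows hold no match, differed by 13.1-fold and 8.3-fold, and SLC1A3, which has a match, was listed at 0 in A and had 1.97 FPKM in B. In resistant HCC827 the 5 were higher in A as well, from 8.28-fold for SLC1A4 to 1.45-fold for SLC3A2, as were 23 of 27 members in all. The SLC7A5 window in the table held no match, which says only that these letters are not in those 300 bases.

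Genes that use or sense what the transporters carry were counted from further lists, and the counts stand beside 9.36% of all rows called in HCC4006 and 6.8% in HCC827. Of 21 tested enzymes of glutamine, asparagine, serine, proline and branched-chain amino acid metabolism in HCC4006, 2 were called higher and 2 lower. GLUL, glutamine synthetase, rose to 224 and 243 FPKM in resistant HCC4006 against 25.9 and 8.74 FPKM in DMSO HCC4006 (log2 fold change 3.91, SE 0.59, adjusted p = 0.0386). Its adjusted p was 0.447 and 0.467 without resistant A or B, and 0.0739 over rows above 0 alone. BCAT2, the mitochondrial branched-chain aminotransferase, fell to 53.1 and 61.1 FPKM in resistant HCC4006 against 167 and 173 FPKM in DMSO HCC4006 (−1.57, SE 0.20, adjusted p = 0.0253). Without resistant A, resistant B, DMSO A or DMSO B its adjusted p was 0.232, 0.203, 0.0658 and 0.0565, and with the column letter as a block it was 0.0885. The other 2 called there, PRODH and ASRGL1, had libraries listed at 0. In HCC827, 1 of 22 tested enzymes was called higher (GLUD1) and 1 lower (BCAT1), both with libraries listed at 0.

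Of the cystine and glutathione genes, 2 of 14 tested were called higher and 1 lower in HCC4006, all with libraries listed at 0, and 1 of 14 was called higher in HCC827. That gene was AIFM2, which protects membranes against lipid peroxidation, at 16.4 and 28.3 FPKM in resistant HCC827 against 2.12 and 1.28 FPKM in DMSO HCC827 (log2 fold change 3.35, SE 0.51, adjusted p = 0.0278). Leaving out any 1 library gave it an adjusted p between 0.149 and 0.279. Of the genes by which mTORC1 senses amino acids, 3 of 23 tested were called higher in HCC4006 and 3 of 22 in HCC827, and each had libraries listed at 0. MTOR itself had 179 and 261 FPKM in resistant HCC4006, 88.9 and 139 FPKM in resistant HCC827, and was listed at 0 in the 4 DMSO libraries. MLST8 was listed at 0 in the same DMSO libraries, and RPTOR in every library. Whether these values of 0 were failed estimates was not tested, so no direction is read from them.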

How the data were processed

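Polyadenylated RNA of 8 libraries was measured, 2 in each of 4 groups. The authors deposited FPKM in 2 tables, 1 per cell line, made with TopHat 1.4.1, Cufflinks 1.3.0 and Cuffdiff on hg19, per the submitters' processing notes. The annotation is not given in the sources used here. RNA came from a miRNeasy kit and libraries from TruSeq RNA v2, which does not mark strand, per the labels' protocols. FPKM hold no counts, low values gave no steps of whole reads, and the depth is unknown. The tables may be normalized separately, so changes were taken within a line. Columns carry letters A and B where the labels carry numbers; the letters only name libraries. There were 0 per-sample columns left unused.

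Values were tested as log2(FPKM + 0.5) with limma 3.58.1 (R 4.3.3, eBayes with trend), over rows with a mean of at least 0.5 FPKM. Each line was fitted alone, and the difference of the changes was an interaction contrast over all 8 libraries. P-values were adjusted by the Benjamini-Hochberg method across every fitted row, with calls below 0.05. Fold changes are on the log2(FPKM + 0.5) scale, which understates the change of low genes. Scripts were tested on simulated data. By rule, members were named when called and above 0, when highest in their family, or as main known carriers of the families. Members with a group at 0 and a mean of at least 50 FPKM in another were named too. SLC6A16, SLC6A17, SLC7A2, SLC7A9, SLC3A1 and SLC1A7 were added after their values were seen. The rule for list genes was called and above 0. Outside that rule, called list genes with libraries at 0 were also named. DDIT3, TRIB3 and ASNS, called in neither line, were picked after their values were seen. The members and the 6 gene lists (124 of 134 genes found) were chosen with earlier results of these data known. Starts in the tables count from 0, since the end minus the start equalled the GENCODE gene length for 5819 of 20983 names and 1 less for 257; positions are printed counting from 1. Deviations of same-lettered libraries from their group means correlated at −0.077 in HCC4006 (16781 rows) and 0.205 in HCC827 (16153 rows), which with 2 libraries a group does not pair them. Alternatives were other pseudocounts, filters and scalings, a fit of all 8 libraries, a letter block and leaving out each library.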

Additional observations from a re-analysis of the deposited data

Results flagged for a closer look

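The groups of 3 members stood apart in opposite directions in the lines, and the difference itself passed its test for SLC38A6 alone. SLC38A6 was higher in resistant HCC4006 and lower in resistant HCC827 than in the DMSO cells, with a difference of the changes, HCC4006 minus HCC827, of 1.34 (adjusted p = 0.0453 in limma). That call was lost without each of 7 of the 8 libraries, after quantile normalization (0.0697), with the column letter as a block (0.136) and over rows above 0 alone (0.148). SLC1A5 moved in opposite directions in the lines without overlap of the groups in either, lower in resistant HCC4006 and higher in resistant HCC827, and its difference of −0.99 did not pass (adjusted p = 0.212). SLC36A1 also moved in opposite directions without overlap, higher in resistant HCC4006 and lower in resistant HCC827, and its difference of 2.11 did not pass (adjusted p = 0.173). Of the 19 members above 0 in all 8 libraries, 2 were higher in resistant HCC4006 and lower in resistant HCC827 without overlap and 1 the other way, where 7.28% and 7.57% of 14804 such rows did the same.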

How the results depend on the processing

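Counts of called members depended on the rows in the fit. In the main fit, 9.36% of all rows were called in HCC4006, 6.8% in HCC827 and 12.1% for the difference of the changes. Over rows above 0 alone these shares were 0.534%, 0.119% and 1.45%. No share of all rows was taken in the other settings. The counts of members there cannot be set apart from a change over all rows. In HCC4006 the 4 called members became 0 over rows above 0 alone, 2 with the column letter as a replicate block, and 2 to 5 with 1 library left out. The 2 called members above 0 became 0 over rows above 0 alone, 1 after quantile normalization, 0 with the replicate block, and 0 to 2 with 1 library left out. In HCC827 the 4 called members became 7 with no filter, 1 over rows above 0 alone, 7 in the fit of all 8 libraries, and 0 to 5 with 1 library left out, while the 2 above 0 became 1 over rows above 0 alone and 0 whichever library was left out. For the difference of the changes, 7 became 0 over rows above 0 alone, 3 with the block, and 5 to 8 with 1 library left out. The cause was not tested, beyond the smaller number of samples when a library is left out and the smaller number of rows over rows above 0; the lone library of a group is then assumed to vary like the others. Quantile normalization moved the median log2 fold change of all rows above 0 to −0.22 in HCC4006 and −0.28 in HCC827, beside −0.04 and −0.10 as deposited. The sign turned for SLC1A4 in HCC827 after quantile normalization (−0.42), and for SLC3A2 (0.11) and SLC38A9 (0.00077) in HCC827 after median scaling. With 1 library left out, log2 fold changes that changed sign ranged, in HCC4006, over SLC1A4 −1.31 to 0.65, SLC6A9 −2.59 to 0.44, SLC7A6 −0.36 to 0.90, SLC7A11 −0.75 to 2.64, SLC38A1 −0.19 to 0.29, SLC38A2 −0.80 to 0.20, SLC38A9 −0.42 to 0.11 and SLC43A1 −1.51 to 2.14. In HCC827 they ranged over SLC1A4 −1.36 to 1.49, SLC3A2 −0.27 to 0.27, SLC7A1 −1.57 to 0.70, SLC7A5 −0.98 to 1.05, SLC7A11 −1.97 to 0.0021, SLC36A4 −0.52 to 0.12, SLC38A1 −1.22 to 0.74, SLC38A2 −0.062 to 0.91, SLC38A9 −0.46 to 0.24 and SLC43A3 −0.60 to 0.12, and in the difference of the changes over SLC7A1 −1.65 to 0.62 and SLC43A2 −0.10 to 1.27. SLC6A9 had a difference of the changes of −0.64 to −3.67, called without DMSO HCC4006 library B (adjusted p = 0.0452), and SLC38A6 in HCC4006 an adjusted p of 0.046 in the fit of all 8 libraries. CTNS, given under the other observations, had an adjusted p from 0.0198 to 0.375 over its alternatives. Over all alternatives of single genes, 598 kept direction and side of the threshold, 56 lost the call, 5 gained it and 31 turned sign. Depth is unknown, so no limit from counting can be given.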

Other observations

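Carriers of other families and the partners of amino acid transporters were counted in the same fits. Of the carriers, 1 of 17 tested was called higher in HCC4006, where 9.36% of all rows were called, and 1 of 15 was called higher and 1 lower in HCC827, where 6.8% were. CTNS, which exports cystine from the lysosome, had 52.2 and 34.7 FPKM in resistant HCC827 against 155 and 165 FPKM in DMSO HCC827 (log2 fold change −1.90, SE 0.34, adjusted p = 0.0478 in limma). Its adjusted p was 0.081, 0.114, 0.313 and 0.375 without resistant A, resistant B, DMSO A or DMSO B. The carrier called higher was SLC25A22, a mitochondrial glutamate carrier, which was listed at 0 in the DMSO libraries of both lines.

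Of the partners and regulators, 1 of 13 tested was called lower in HCC4006 and 0 of 14 in HCC827, where limma gave 2 at an unadjusted p below 0.05, beside 18.2% of all rows. The one in HCC4006 was TMEM27 (collectrin), a partner of kidney SLC6 transporters. It was listed at 0 in resistant HCC4006 and had 11.7 and 11.1 FPKM in DMSO HCC4006, and in HCC827 it had 46.6 and 74.9 FPKM in resistant cells against 24.4 and 34.2 FPKM in DMSO cells, without overlap.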
